A study of Mus musculus with 2 samples.

Results

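Mir143, Mir145a and Mir145b are the 3 mouse microRNA genes examined here, taken by their GENCODE M21 symbols from the 2202 microRNA genes listed in the count tables. Short RNA was sequenced from the hearts of B6CASTF1/J females, an F1 cross of the C57BL/6J and CAST/EiJ strains, aged 2 months. There was 1 group of 2 libraries, replicate 1 and replicate 2, with no treatment, no mutation and no contrasting condition. The labels number the mice separately but carry one donor label, so p-values between the libraries measure only how these 2 libraries differ, which may be technical. The libraries held 8069273 reads (replicate 1) and 7995058 reads (replicate 2), of which 2424441 and 2770301 lay on the own strand of a single microRNA gene. These sums are the base of every CPM level given here, a count scaled to a library sum of 1000000. Reads with several placements, 49.5% and 42.7% of the libraries, were given to no gene. A gene was called detected at 10 or more counts in both libraries, which 306 of the 2202 genes reached. Of the 3 genes examined, Mir143 and Mir145a were detected and Mir145b was not.

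Mir143 and Mir145a are classic microRNAs of vascular smooth muscle, the contractile cells in the walls of arteries and veins. They are processed from a common primary transcript whose activity depends on serum response factor (SRF) and its partner myocardin. Their mature products repress factors such as Klf4 and Elk1, which hold smooth muscle cells in a dividing state, and mice that lack the cluster have arteries with thin, weakly contracting walls. In an adult heart the main smooth muscle lies in the coronary vessels, next to heart muscle cells, endothelium, fibroblasts and blood cells. A microRNA hairpin yields a short mature strand, and bases 2 to 8 of that strand, the seed, pair with target messages.

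The level of Mir143 was set beside that of Mir145a and compared with other neighbouring microRNA genes that lie on 1 strand. For 3 of those pairs, and for the endothelial Mir126a, the mature sequences from RefSeq on GRCm38.p6 are shown with the seed in capitals, since these pairs differ from Mir143 and Mir145a in sharing a seed or most of it. Where a hairpin has a mature strand on each arm, the arms whose seeds match best within the pair are given. The table of mature sequences held none for Mir143, Mir145a and Mir145b.
miR-322-5p: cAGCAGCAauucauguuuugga
miR-503-5p: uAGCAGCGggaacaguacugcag
miR-132-3p: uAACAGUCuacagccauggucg
miR-212-3p: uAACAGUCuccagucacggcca
miR-221-3p: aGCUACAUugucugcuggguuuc
miR-222-3p: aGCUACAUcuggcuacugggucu
miR-126a-3p: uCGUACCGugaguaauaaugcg
The seeds of miR-132-3p and miR-212-3p were equal at 7 of 7 bases, as were those of miR-221-3p and miR-222-3p. Those of miR-322-5p and miR-503-5p were equal at 6 of 7. The hairpins of Mir143 and Mir145a had no common run longer than 5 bases, so no 7-base seed can be common to both.

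In mm10, Mir143 (ENSMUSG00000065445.3) lies on the minus strand of chromosome 18 at 61649196 to 61649258, and Mir145a (ENSMUSG00000065592.2) at 61647825 to 61647894 on the same strand. Mir145a lies downstream in the direction of transcription, with 1301 bases between the hairpins. Neither hairpin overlaps another annotated gene, exon or intron. The 3′ end of Carmn, a long non-coding RNA gene of 15913 bases on the same strand, lies 366 bases upstream of Mir143. Bvht (Braveheart), a long non-coding RNA described in mouse for its part in commitment to the cardiovascular lineage, lies on the opposite strand, and its annotated end is 352 bases from Mir145a. No other microRNA gene is annotated within 100000 bases. Mir145b (ENSMUSG00000098366.1) is not part of this cluster by position. It lies at 69022199 to 69022273 on the minus strand of the same chromosome, 7.37 megabases away, outside any annotated gene. Its link to Mir145a is sequence, with an exact run of 17 bases in both hairpins, the longest that either has with any other microRNA gene. The hairpins are 63, 70 and 75 bases long in the order Mir143, Mir145a, Mir145b, with 55.6%, 48.6% and 46.7% G and C. None of them had a run of 20 bases in common with a hairpin elsewhere, whereas 70 of the 306 detected genes had one, so that reads of those genes can have several placements.

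**Figure D1:**
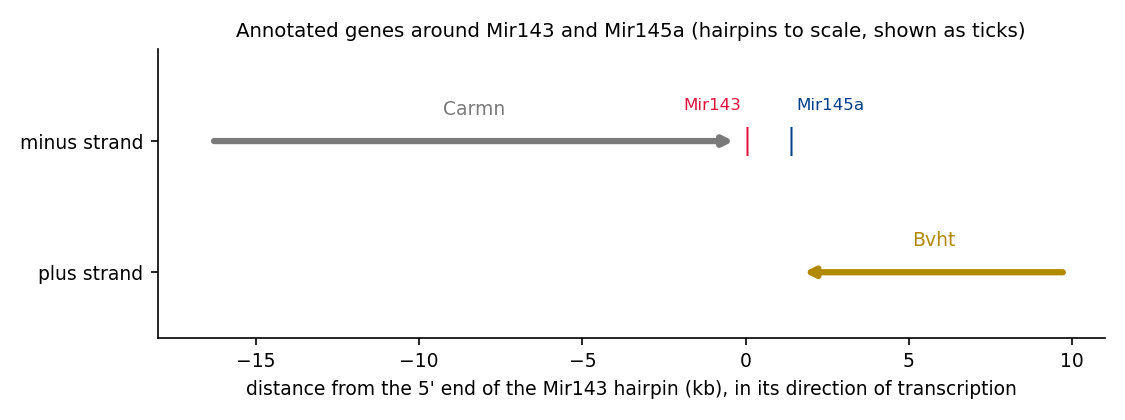
Position of annotated genes on the minus and plus strands around the cluster, as distance in kb from the 5′ end of the Mir143 hairpin in its direction of transcription; arrows point in each gene's own direction. Mir143 and Mir145a follow the end of Carmn, with 366 bases between Carmn and Mir143 and 1301 between the hairpins, and Bvht ends on the other strand 352 bases beyond Mir145a.

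Mir143 was among the most abundant microRNA genes counted in the heart, and Mir145a was counted far less often. Mir143 had 118108 counts in replicate 1 and 120570 in replicate 2, or 48716 CPM (95% exact Poisson interval 48438 to 48994) and 43522 CPM (43277 to 43769). Its mean was 46119 ± 3672 CPM (SD, n = 2), and the SD was 7.96% of the mean. Replicate 1 was thus the higher library for Mir143 on this scale, by little. Mir145a had 4731 counts in replicate 1 and 2766 in replicate 2, or 1951 CPM (1896 to 2008) and 998 CPM (962 to 1036). Its mean was 1475 ± 674 CPM, with an SD of 45.7% of the mean. Replicate 1 was again the higher library, and the intervals of the libraries did not overlap for either gene. Mir145b had 0 counts in replicate 1, which allows up to 1.24 CPM at a limit of 3 counts, or 1.52 CPM by the exact interval. In replicate 2 Mir145b had 1 count (0.361 CPM, exact interval 0.00914 to 2.01). It was not detectable at this depth. Intervals and limits cover counting error only, because copies made by PCR are counted like separate molecules.

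**Figure D2:**
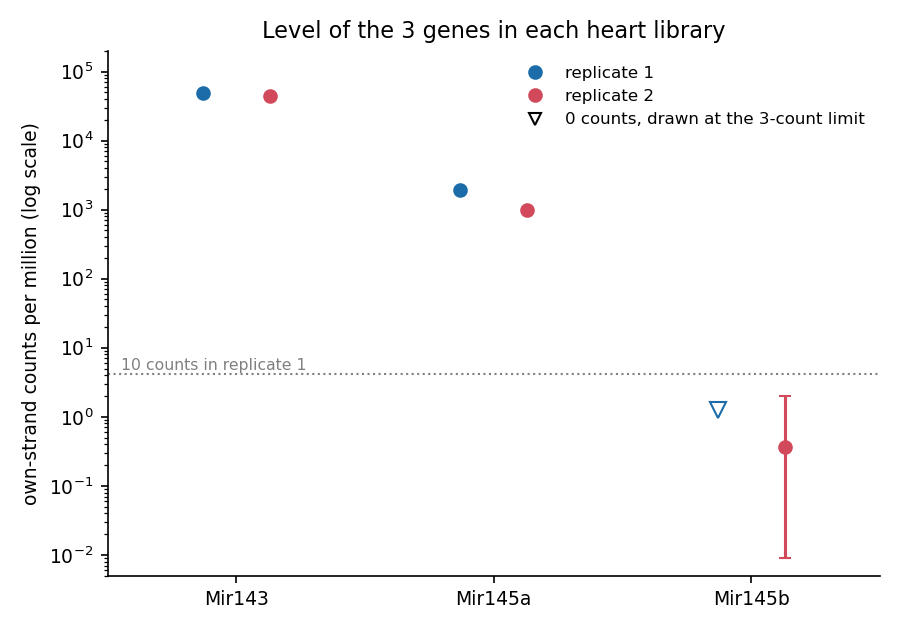
Own-strand CPM on a log axis for Mir143, Mir145a and Mir145b in replicate 1 (blue) and replicate 2 (red), with 95% exact Poisson intervals and an open triangle where the count was 0. Mir143 sits near 46119 CPM in both libraries, Mir145a at 1951 and 998 CPM, and Mir145b below the line for 10 counts.

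All counts of the 3 genes came from their own strand: 0 reads were placed on the opposite strand of any of them in either library. Mir143 and Mir145a together held 5.07% of microRNA gene counts in replicate 1 (95% Clopper-Pearson interval 5.04 to 5.09) and 4.45% in replicate 2 (4.43 to 4.48). Of all sequenced reads they made up 1.52% and 1.54%. A share in bulk tissue does not tell fewer smooth muscle cells from less microRNA per cell. Messenger RNA was not measured, so the smooth muscle origin of these reads could not be checked against smooth muscle marker genes such as actin or myosin. The reads of the C57BL/6J and CAST/EiJ alleles, and those of the 5′ and 3′ arms, are summed in the counts.

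Reads with several placements are not counted here, so genes that share bases with another hairpin may rank too low. By mean level of the counted reads Mir143 ranked 8 of 2202 genes, 7 in replicate 1 and 8 in replicate 2. Its neighbours in that order were Mir451a above and Mir23b below. Mir451a, a microRNA of red blood cells, averaged 47322 ± 55869 CPM and did not differ from Mir143 beyond its spread. Mir23b averaged 37338 ± 185 CPM, and its distance of 8781 CPM from Mir143 was larger than the SD of either gene. Mir145a ranked 57, with 50 in replicate 1 and 65 in replicate 2, between Mir16-1 (1586 ± 371 CPM) and Mir27a (1439 ± 698 CPM), neither of which differed from it beyond the SD. The genes most like Mir143 over the 2 libraries, by the straight-line distance between their log2(CPM + 1) values, were Mirlet7b (distance 0.39), Mirlet7d (0.42) and Mir23b (0.44). Mirlet7b stood at 63311 CPM in replicate 1 and 46422 in replicate 2. The genes most like Mir145a were Mir27a (0.08), Mir146 (0.32) and Mir150 (0.42), of which Mir27a stood at 1932 CPM in replicate 1 and 945 in replicate 2. Mir23b, Mir27a and Mir146 have a run of 20 bases in common with another hairpin, so their levels are uncertain. In the neighbouring genes Mir15a and Mir16-1 such a run is also present in at least one of them, so the level of Mir16-1 may be uncertain too.

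**Figure D3:**
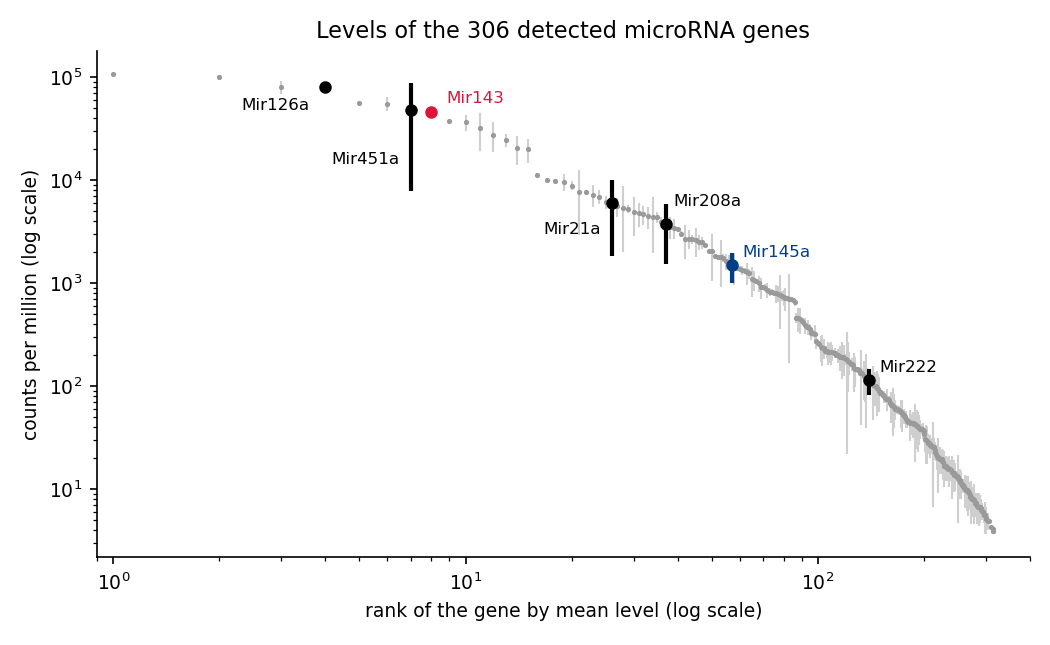
Mean CPM of the 306 detected genes against their rank, both on log axes; vertical lines join the values of the 2 libraries. Mir143 (red) stands at rank 8 with a short line, and Mir145a (blue) at rank 57 with a line from 1951 to 998 CPM.

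The members of the cluster were counted very unequally. Mir143 had 25.0 counts for each count of Mir145a in replicate 1 (95% Clopper-Pearson interval 24.2 to 25.7) and 43.6 in replicate 2 (42.0 to 45.3), a geometric mean of 33.0. Mir145a thus supplied 3.85% of the cluster's counts in replicate 1 and 2.24% in replicate 2. Such ratios do not depend on how libraries are scaled. Reads of this size class stand for single short RNAs, so counts were not divided by gene length.

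To see how unusual that ratio was, all neighbouring microRNA genes on 1 strand with at most 10000 bases between them and both detected were taken, giving 66 pairs. The median pair had a ratio of 7.20 between its higher and its lower gene, and 29 pairs exceeded 10. Mir143 over Mir145a ranked 11 of 66, with rank 14 in replicate 1 and 9 in replicate 2. In 9 of the 10 pairs above it a gene has a run of 20 bases in common with a hairpin elsewhere, so some of that gene's reads may be uncounted. These were Mir29a over Mir29b-1 (297), Mirlet7d over Mirlet7f-1 (264), Mir92-2 over Mir363 (91.4), Mir99a over Mirlet7c-1 (60.1) and Mir206 over Mir133b (49.2), as geometric mean ratios. The others of the 9 were Mir29c over Mir29b-2 (47.0), Mir15b over Mir16-2 (41.2), Mirlet7b over Mirlet7c-2 (41.0) and Mir27b over Mir24-1 (37.1).

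Among the 41 pairs with no such run, where placement of reads is not in doubt on this account, Mir143 over Mir145a ranked 2 (5 in replicate 1 and 3 in replicate 2). Mir322 over Mir503, a pair known for acting on the cell cycle, alone ranked higher, at 55.3 in replicate 1 and 86.9 in replicate 2. Just below came Mir132 over Mir212, at 44.9 and 22.1, whose libraries enclosed the values of Mir143 over Mir145a. Mir221 over Mir222, a pair raised in dividing smooth muscle, stood at 21.8 and 34.8. These pairs, whose seeds are equal or nearly so, were picked with their ratios known. That their ratios exceed 10 was thus fixed by the choice. Whether pairs with a common seed differ in ratio from pairs without one, such as Mir143 and Mir145a, was not tested. The median over the 41 pairs was 4.78.

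**Figure D4:**
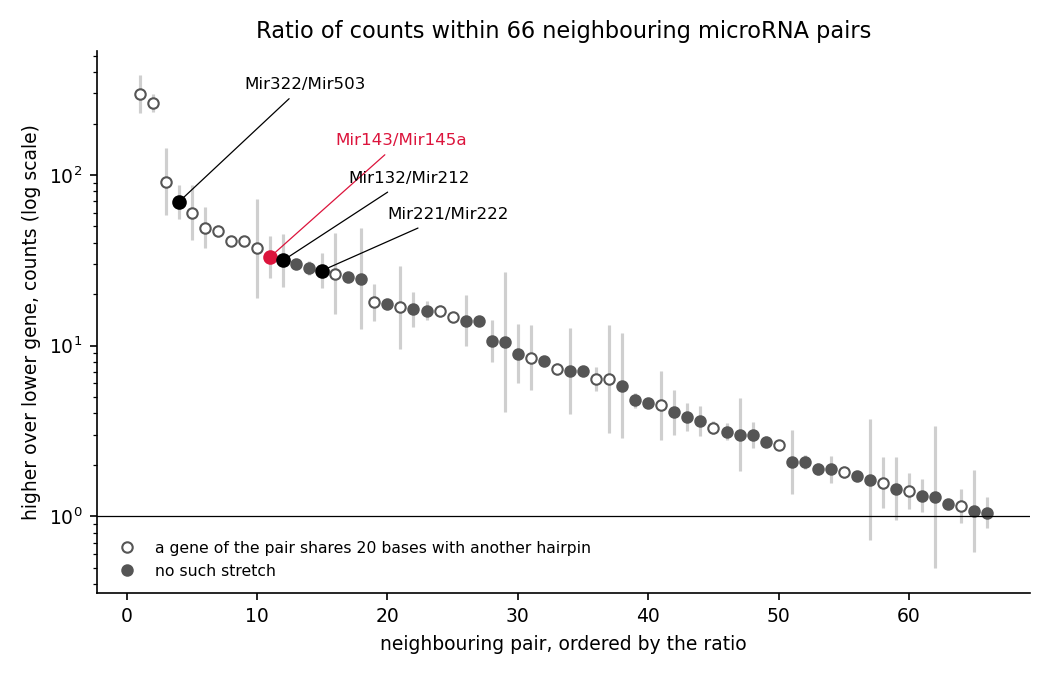
Ratio of counts of the higher over the lower gene (log axis) in 66 neighbouring pairs, ordered by the geometric mean (points), with lines joining replicate 1 and replicate 2. Mir143/Mir145a (red) stands at 33.0, and 9 of the 10 pairs above it are open circles, which mark a gene with 20 bases in common with another hairpin.

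The ratio itself differed between the libraries. It was 0.573 times as large in replicate 1 as in replicate 2 (95% interval 0.546 to 0.601, log2 -0.80), with an adjusted p of 1.7e-119 by Fisher's exact test (two-sided, Benjamini-Hochberg over 66 pairs). Of the 66 pairs 60.6% passed the same test, so a difference beyond counting error was common. The ratio moved by 1.75-fold between the libraries for Mir143 and Mir145a and by 1.56-fold for the median pair, and 25 pairs moved more. The difference is thus within the range that neighbouring genes showed here.

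Gene by gene, the change in that ratio lay with Mir145a. Mir145a was 1.95-fold higher in replicate 1 (95% exact interval 1.86 to 2.05, log2 0.97), with an adjusted p of 1.7e-178 by a two-sided exact binomial test with Benjamini-Hochberg adjustment over 306 genes. Mir143 was 1.12-fold higher in replicate 1 (1.11 to 1.13, log2 0.16, adjusted p 8.3e-166 by the same exact test). Both detected genes passed, but so did 61.1% of all 306, and at this depth a difference as small as that of Mir143 passes. Mir145a also differed by at least 1.5-fold, as did 36.6% of genes in either direction and 25.5% of genes higher in replicate 1. The test compares 2 libraries and no conditions.

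The direction for Mir143 rested on the scaling. The median detected gene had a log2 ratio of 0.19, which TMM factors moved to -0.03 and DESeq2 size factors to 0. Against that median Mir143 lay at -0.03 and Mir145a at 0.78. Of the 306 genes 13 lay closer to the median than Mir143 did, and none of them was among the 20 most abundant. On library totals, by contrast, 57 genes had a log2 ratio closer to 0 than Mir143, 7 of them among the 20 most abundant. For Mir145a 221 genes lay closer to the median and 84 further away, with 43 more strongly higher in replicate 1. With TMM factors Mir143 was lower in replicate 1 (log2 -0.06), whereas Mir145a stayed higher (0.75).

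**Figure D5:**
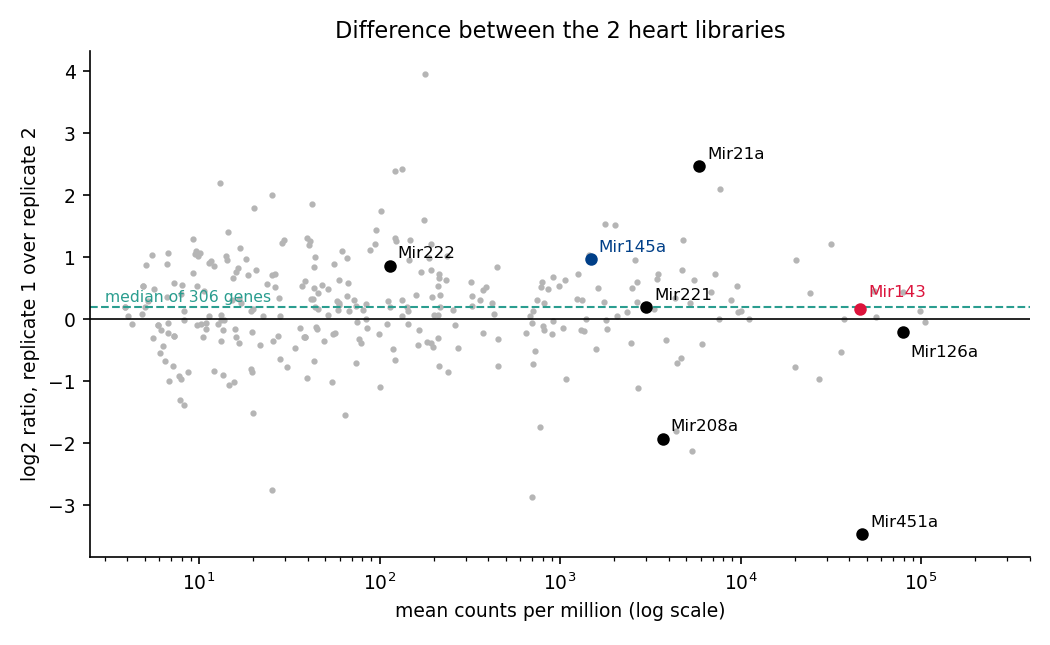
Log2 ratio of replicate 1 over replicate 2 against mean CPM (log axis) for 306 detected genes, with the median gene as a dashed line at 0.19. Mir143 (red) and Mir221 lie on that line, and Mir145a (blue) lies above it at 0.97. Marked in black are Mir126a, Mir451a, Mir21a, Mir208a, Mir221 and Mir222. Other list genes are not marked, among them Mir499, Mir208b and Mir1a-2, which were higher in replicate 1 where Mir208a was lower.

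Counts of listed genes that passed the exact binomial test are set beside all 306 detected genes, of which 41.5% were higher and 19.6% lower in replicate 1 on library totals. With TMM factors 27.5% were higher and 31.7% lower, and with DESeq2 factors 28.8% and 30.7%. No list was tested as a set.

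Other microRNAs dependent on SRF and myocardin gave little to compare with the cluster. That list holds Mir143, Mir145a and Mir145b with the muscle microRNAs Mir1a-1, Mir1a-2, Mir133a-1 and Mir133a-2. Mir145b lies outside the cluster, and its dependence on SRF and myocardin was not tested. Of the 7 genes 3 were detected. These were Mir143, Mir145a and Mir1a-2, so Mir1a-2 alone adds to the cluster, and the list's median log2 ratio of 0.97 is the value of Mir145a itself, against 0.19 over all 306 genes. All 3 were higher in replicate 1 on library totals, as were 41.5% of all genes, and Mir143 was lower with TMM or DESeq2 factors. Mir1a-2 had 141 counts in replicate 1 and 67 in replicate 2 (adjusted p 2.7e-09 by the exact binomial test). Mir1a-1, Mir133a-1 and Mir133a-2 had at most 11 counts in a library. All 4 muscle genes have 20 bases in common with a hairpin elsewhere, so their levels are uncertain and Mir143 cannot be ranked against them.

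The list drawn up here for the contractile state of smooth muscle holds those 7 genes with Mir10a, Mir24-1 and Mir24-2. Whether each gene belongs to that state was not tested, and for Mir24-1 and Mir24-2 the placing is uncertain. Of the 10 genes 6 were detected. Of the 6, 4 were higher and 2 lower in replicate 1 (median log2 0.48, against 0.19 over all genes), where 127 of 306 genes were higher and 60 lower. Mir143 and Mir145a are among the 4, and with TMM or DESeq2 factors the counts were 3 and 3. Mir10a stood at 1227 CPM in replicate 1 and 1380 in replicate 2, close to the level of Mir145a and lower in replicate 1 under each of these scalings. Mir24-2 was higher (245 and 140 CPM) and Mir24-1 lower (94.5 and 148 CPM) in replicate 1, both with bases in common with other hairpins.

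MicroRNAs tied to dividing smooth muscle are Mir21a, Mir146, Mir221, Mir222, Mir31, Mir26a-1 and Mir26a-2, of which 6 of 7 were detected. All 6 were higher in replicate 1 on library totals (median log2 0.80, against 0.19 over all genes), as were 41.5% of all 306. With TMM or DESeq2 factors 5 were higher and Mir221 did not pass, where 27.5% or 28.8% of all genes were higher. The share of this list was 1.62% in replicate 1, against 0.632% in replicate 2. Mir143 and Mir145a together exceeded its sum 3.12-fold in replicate 1 and 7.04-fold in replicate 2. Mir146, Mir26a-1 and Mir26a-2 have bases in common with other hairpins, so the list's share may be too low and these ratios are uncertain. Mir21a, which is also a microRNA of fibroblasts, had 24289 counts in replicate 1 and 5013 in replicate 2. It was the highest gene of the list in replicate 1, and Mir221 was the highest in replicate 2. Mir221 stood at 3206 CPM in replicate 1 and 2812 in replicate 2, Mir222 at 147 and 80.9, Mir31 at 927 and 647 and Mir146 at 1576 and 952. Mir26a-2 had 817 counts in replicate 1 and 60 in replicate 2, and Mir26a-1 had 11 and 6, both uncertain for bases in common with other hairpins. The proportion of Mir143 to these genes differed from gene to gene. It had 15.2 counts for each count of Mir221 in replicate 1 (14.9 to 15.6) and 15.5 in replicate 2 (15.1 to 15.8), intervals that overlap. For each count of Mir21a it had 4.86 in replicate 1 (4.80 to 4.93) and 24.1 in replicate 2 (23.4 to 24.7), intervals far apart.

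The counted reads of the cluster were fewer than those of the endothelial microRNAs and, in both libraries, more than those counted for heart muscle and fibroblast genes. Mir143 and Mir145a together stood at 0.658 times the endothelium list in replicate 1 and 0.505 times in replicate 2. Nearly all of that list was Mir126a, the endothelial microRNA of Egfl7, at 73653 and 85269 CPM, while Mir126b had 2 counts in each library. Of the 3 endothelial genes detected, Mir221 and Mir222 were higher and Mir126a was lower in replicate 1, close to the split of 127 and 60 over all genes, and Mir221 did not pass with TMM or DESeq2 factors. Mir143 had 0.661 counts for each count of Mir126a in replicate 1 (0.657 to 0.666) and 0.510 in replicate 2 (0.507 to 0.514). Against the heart muscle list the cluster was 8.38-fold higher in replicate 1 and 5.19-fold in replicate 2. The detected genes of that list were Mir208a (1542 and 5865 CPM), Mir499 (4354 and 2641), Mir208b (84.1 and 39.3) and Mir1a-2, the first 3 of them hosted by myosin genes. Of these 4, Mir208a was lower and the other 3 were higher in replicate 1, against 19.6% lower and 41.5% higher over all genes. Mir143 had 31.6 counts for each count of Mir208a in replicate 1 and 7.42 in replicate 2, and 11.2 and 16.5 for each count of Mir499. The ratio to this list is uncertain because 4 of its 7 genes have bases in common with other hairpins.

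Against the fibroblast list the cluster was 4.47-fold higher in replicate 1 and 17.2-fold in replicate 2. Of that list's 6 genes 4 were detected, and 3 were higher in replicate 1, against 41.5% of all genes: Mir21a (10018 and 1810 CPM), Mir214 (1121 and 701) and Mir152 (174 and 70.0). Mir143 had 43.4 counts for each count of Mir214 in replicate 1 and 62.1 in replicate 2. Mir199b did not pass (30 and 25 counts), Mir199a-1 had 0 and 1 counts and Mir199a-2 had 7 and 9, all 3 uncertain for bases in common with other hairpins. Against the erythroid list the cluster was 4.41-fold higher in replicate 1 and stood at 0.466 times its level in replicate 2. All 3 erythroid genes were lower in replicate 1, against 19.6% of all genes (31.7% with TMM factors): Mir451a (7816 and 86827 CPM), Mir144 (1963 and 6858) and Mir486 (1710 and 1919). On library totals replicate 1, the library with more Mir145a, thus had more of 3 of 4 detected fibroblast genes. It had more of 3 of 4 heart muscle genes and all 6 genes of the dividing state, and less of all 3 erythroid genes. Mir21a is counted in both the fibroblast and the dividing list. As a sum the heart muscle list was lower in replicate 1, at 0.605% of counts against 0.858% in replicate 2. Over all genes 41.5% were higher and 19.6% lower in replicate 1, and nothing is called particular to a list. The part of these cell types in the difference of Mir145a was not tested.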

How the data were processed

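The deposited tables hold raw counts of reads per microRNA gene for 2 heart libraries. Per the labels the assembly was mm10; a deposited note names GENCODE M21 as annotation. The sources used here name no aligner or counter. The tables have no header; the 3 count columns were read from their values as either-strand, own-strand and opposite-strand counts. The first 4 lines name no gene (70.0% and 65.3% of reads) and entered neither library sizes nor tests. M21 held all 2202 identifiers and gave positions and hairpins.

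CPM is the own-strand count divided by the library's own-strand sum. Single genes were compared between libraries with an exact binomial test (two-sided, expected share from the sums), and pairs with Fisher's exact test, each with Benjamini-Hochberg adjustment at 0.05; folds are replicate 1 over replicate 2. No fit with a spread between samples can be had for 1 library against 1. Own-strand counts of the 2 libraries differed far beyond sampling noise (chi-square 510 per degree of freedom), so each library was used as 1 sample. Hairpins of the microRNA genes were searched on both strands for exact runs of 20 bases in another hairpin that does not overlap. The rest of the genome was not searched. The lists and genes to compare were chosen with earlier results of these data known. Named are the members, the 3 nearest genes of each detected member, list genes and the pairs around Mir143 and Mir145a; Mir221 over Mir222 was picked after its ratio was seen, as were the sequences shown. Both tests were checked on simulated counts with counting error only, without the further spread seen between these libraries. Alternatives were other scalings, strand columns, count minimums, gaps between pairs and each replicate alone. Python 3.11.15, numpy 2.4.6, pandas 2.3.3, scipy 1.17.1, matplotlib 3.10.9, R 4.3.3, edgeR 4.0.16 (TMM) and DESeq2 1.42.0 (size factors) were used.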

Additional observations from a re-analysis of the deposited data

How the results depend on the processing

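Mir145a was higher in replicate 1 and passed the test under all 7 alternatives, and the count of detected members that passed stayed at 2. Mir143 passed in each but turned direction in 3: its log2 ratio was 0.16 on library totals and -0.0572 scaled to all placed reads, -0.0558 with TMM factors and -0.0281 with DESeq2 size factors. The alternative count minimums change only which genes are tested, so the ratios of Mir143 and Mir145a could not move under them. Of called genes that differ by at least 1.5-fold, 78 were higher and 34 lower in replicate 1, against 46 and 52 with TMM factors and 49 and 48 with DESeq2 factors. With at least 100 counts in both libraries, 65 genes differed by at least 1.5-fold, against 112, because fewer genes were tested (182). The share of Mir143 and Mir145a together was 4.76% of counts, 6.36% of either-strand counts and 1.85% of all placed reads. Both moves follow from the denominator, since the genes' own counts were equal in these columns. The pairs more uneven than Mir143 over Mir145a numbered 10 of 66, 6 of 36 with at least 100 counts in each gene and 1 of 41 without shared runs, with fewer pairs tested in both cases. Each replicate alone gave 4.45% to 5.07% for the share and 8 to 13 more uneven pairs. The ratio of Mir143 to Mir145a cannot be compared between libraries with 1 library left out, so those alternatives were not run. No paired analysis was possible because the labels give 1 group. With 1 library against 1, the spread between animals cannot be estimated.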

Other observations

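Chromosome 18 carries 57 of the annotated microRNA genes, and 8 of them were detected. These genes were looked at after their values had been seen. Mir378a, which lies in an intron of the mitochondrial coactivator gene Ppargc1b, was the highest at 98897 ± 6630 CPM (SD, n = 2), followed by Mir143 and Mir145a. The remaining 5 averaged from 6.14 CPM (Mir1949) to 164 CPM (Mir187). Mir143 had 0.470 counts for each count of Mir378a in replicate 1 (95% Clopper-Pearson interval 0.467 to 0.474) and 0.462 in replicate 2 (0.459 to 0.465). Mir145a had 0.0188 and 0.0106 counts for each count of Mir378a. Mir378a has 20 bases in common with another hairpin, so its level and these ratios are uncertain.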
